A study of Mus musculus with 16 samples.

Results

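Endothelial cells (ECs), which form the inner lining of vessels, were sorted from the lungs of 18-month-old mice 30 days after bleomycin or sham treatment. Their transcriptomes were compared. The comparison took every library of that age and no others: 4 libraries from bleomycin-treated mice (Aged Bleo 1, 2, 3 and 5) against 3 from sham mice (Aged Sham 13, 14 and 15), which makes 7 of the 16 libraries of the series. The other 9 libraries came from 2-month-old mice, 5 Young Sham and 4 Young Bleo. They enter below through the shared estimate of spread and where the responses at the 2 ages are compared. All groups were FVB mice that carried a GFP reporter driven by the collagen gene Col1a1, the controls included, and the study's methods state that both sexes were used. Bleomycin was given once into the trachea and sham mice received saline by the same route. Lungs were perfused, and living cells were taken by flow cytometry as positive for CD31 (Pecam1) and negative for the leukocyte protein CD45 (Ptprc), the epithelial protein EpCAM and the GFP reporter. The reporter marks cells with an active collagen promoter. Fibroblasts without GFP are left to the CD31 selection alone. Platelets attached to ECs and other CD31-positive cells are not removed by the gate. Each library is described in the labels as a separate sample, and no batch is given.

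Bleomycin is a cytotoxic drug that breaks DNA and injures the alveolar wall, and a single dose is followed by inflammation and then by fibrosis. Lung capillaries hold 2 known cell states, the aerocyte, which is thin and specialised for gas exchange and carries Car4 and Ednrb, and the general capillary cell, which carries Gpihbp1, Kit and Aplnr and serves as the progenitor in repair. After injury, lung ECs are known to divide, to lay down basement membrane and to take up genes of the systemic circulation.

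The 7 libraries held 23.73 to 71.04 mega-counts, the shallowest being Aged Sham 13 and the deepest Aged Bleo 3. Values are read counts divided by DESeq2 size factors (normalized counts), and are given in the order Aged Bleo 1, 2, 3 and 5, then Aged Sham 13, 14 and 15. The endothelial label was checked against the defining transcripts, and all 20 pan-endothelial markers were tested. Their summed level in FPKM, a unit scaled by gene length, was 2872, 2848, 3514 and 3164 in Aged Bleo and 3651, 3505 and 3949 in Aged Sham. They were well counted in every library. Cdh5, the junctional cadherin of ECs, held 30693, 39039, 37500 and 32840 in Aged Bleo and 36768, 32427 and 34007 in Aged Sham (log2 fold change 0.03, adjusted p = 0.951). Pecam1, the sorting antigen, held 67013, 53240, 82944 and 68348 in Aged Bleo and 48835, 78848 and 73057 in Aged Sham (log2 fold change 0.02, adjusted p = 0.976). Erg, an endothelial transcription factor, held 1745, 1919, 1530 and 1805 in Aged Bleo and 2126, 1911 and 1748 in Aged Sham (log2 fold change -0.14, adjusted p = 0.74). Transcripts of the genes used for the negative gates were counted as well. Ptprc stood at 371, 371, 117 and 938 in Aged Bleo and 114, 70.4 and 89.6 in Aged Sham (log2 fold change 2.30, adjusted p = 0.0962). Epcam stood at 36.1, 22.1, 28.8 and 161 in Aged Bleo and 46.0, 167 and 46.6 in Aged Sham (log2 fold change -0.49). Col1a1 stood at 1646, 657, 447 and 439.6 in Aged Bleo and 639, 557 and 1091 in Aged Sham (log2 fold change 0.06, adjusted p = 0.968). None of these 6 genes passed the test, although the Ptprc values of the groups did not overlap. The Y-linked gene Ddx3y held 3156, 2667, 2947 and 3174 in Aged Bleo and 2396, 3598 and 3660 in Aged Sham. Xist, the RNA of the inactive X chromosome, did not exceed 26.5 normalized counts in any of the 7. All 7 thus carried the male pattern.

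The Aged Bleo libraries did not lie together. In a principal component analysis of the 7 libraries over 13826 genes, the first component held 49.5% of the variance. It placed Aged Bleo 1 and 2 at -82.68 and -76.35, Aged Bleo 5 and 3 at 2.86 and 7.914, and the sham libraries at 28.07 to 60.65. The rank correlation across genes was 0.9763 between Aged Bleo 1 and 2 and 0.9804 between Aged Bleo 3 and 5, but 0.9395 to 0.9459 between these pairs. Aged Bleo 3 and Aged Sham 15 reached 0.9748. Aged Sham 13 stood apart on the second component (18.4% of the variance, score -68.46). The labels give no reason for either split. Results are therefore given by library, with the main calls and counts that changed without single libraries. No pair of replicate libraries agreed within counting noise, so none was treated as a repeat deposit of another. The labels do not say whether mice shared a cage or a sort day, and p-values measure only the spread between these samples.

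**Figure D1:**
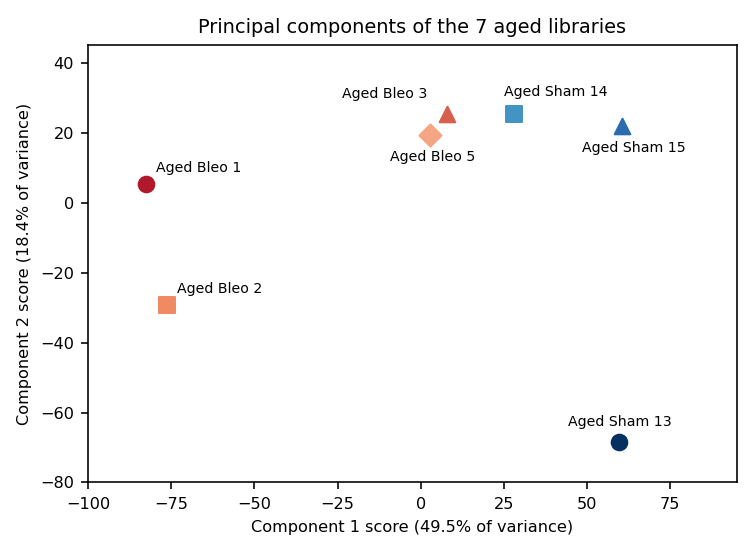
Scores of the 7 aged libraries on the first (x axis, 49.5% of the variance) and second (y axis, 18.4%) principal components of log-scaled normalized counts. Each point is a library, red for Aged Bleo and blue for Aged Sham. Aged Bleo 1 and 2 lie at the far left, Aged Bleo 3 and 5 between them and the sham libraries, and Aged Sham 13 lies alone at the bottom.

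The first question was how many genes differed between injured and uninjured aged ECs. With the DESeq2 Wald test (p adjusted by Benjamini-Hochberg, 0.05 or less, with a log2 fold change of 0.5 or more in either direction, the study's own thresholds), 630 genes rose and 453 fell out of 18515 tested, which is 3.4% and 2.45%. The edgeR quasi-likelihood test, which makes fewer calls in groups of this size, called 82 higher (0.448%) and 64 lower (0.349%) of 18324. All 146 of these were among the 1083 DESeq2 calls. At an unadjusted p under 0.05 stood 3552 genes with DESeq2 (18515 had an adjusted p) and 2988 of 18324 with edgeR. List counts at an unadjusted p are to be read beside these. The 4 Aged Bleo values lay above all 3 Aged Sham values for 5.94% of genes and below them for 6.14%. Of the 1083 called genes 973 were protein coding, 26 were lincRNAs, and 826 had groups that did not overlap. The median log2 fold change was 0.00614 over all tested genes, which the scaling by size factors centres near 0, and 1.34 in absolute size over the called genes. On simulated data with these library sizes DESeq2 made more false calls than its threshold allows, and edgeR did not, so a call by DESeq2 alone is less certain than one by both. The simulated libraries did not hold the split seen among the Aged Bleo libraries, so they do not vouch for edgeR on these data. A call below means DESeq2. Brackets give the log2 fold change ± SE and the adjusted p of DESeq2, with that of edgeR named as such.

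Single libraries set part of this count. Aged Bleo 1 held the highest of the 7 values for 63.5% of the genes called higher, and Aged Bleo 2 for a further 23.7%. Among the genes called lower, Aged Sham 14 was highest for 40.4% and Aged Sham 13 for 39.5%. Over all tested genes these shares were 15.4% for Aged Bleo 1, 14.8% for Aged Bleo 2, 12.1% for Aged Sham 14 and 21.4% for Aged Sham 13. No gene called higher had its highest value in a sham library, and none called lower had it in an Aged Bleo library. Without Aged Bleo 1 DESeq2 made 474 calls, of which 458 were among the 1083, and without Aged Sham 15 it made 657, of which 566 were. Fitted on the 7 aged libraries alone, DESeq2 called 645 genes and edgeR called 0, with 2039 genes at an unadjusted p under 0.05.

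Genes called by both tools, with groups that did not overlap and a mean of at least 50 normalized counts, were ranked by fold change. Of the 12 with the largest rise among them, 4 were on the list of macrophage markers (Siglec1, Spp1, Gpnmb and Cd68). Havcr2, which encodes the surface receptor TIM-3 (ENSMUSG00000020399, chromosome 11, 46454935 to 46481255, mm10), held 332, 116, 51.0 and 15.4 in Aged Bleo and 0, 0 and 0 in Aged Sham. It was thus counted in every Aged Bleo library and was at 0 counts in every Aged Sham library. Against a floor of 3 counts per sham library the mean was at least 31.6-fold higher (DESeq2 adjusted p = 6.25e-06, edgeR adjusted p = 0.0442). Siglec1, the sialoadhesin of tissue macrophages, held 387, 254, 51.6 and 17.0 in Aged Bleo and 0, 2.31 and 0 in Aged Sham, at least 43.7-fold higher against the same floor. Mmp12, the macrophage elastase, held 6068, 1775, 1247 and 1285 in Aged Bleo and 0, 39.2 and 6.40 in Aged Sham (log2 fold change 7.41 ± 1.72, adjusted p = 0.00148, edgeR adjusted p = 0.0444). Its Aged Bleo 1 value lay far above the other 3. Spp1 (osteopontin, a secreted glycoprotein of macrophages in scarred lung; ENSMUSG00000029304, chromosome 5, 104435118 to 104441050) held 70626, 49003, 6831 and 5257 in Aged Bleo and 1974, 1096 and 1478 in Aged Sham (log2 fold change 4.44 ± 0.85, adjusted p = 6.67e-05, edgeR adjusted p = 0.0445). The ranking rule took only genes without overlap of the groups, and in all 4 Aged Bleo 1 was highest.

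Aged Bleo 1 and 2 were also highest for other genes at the top. Gpnmb, a glycoprotein of phagocytes, held 10717, 5905, 2044 and 1044 in Aged Bleo and 93.9, 399 and 259 in Aged Sham (log2 fold change 4.30 ± 0.83, adjusted p = 7.96e-05, edgeR adjusted p = 0.0445). Cd68, a lysosomal protein of macrophages, held 7891, 5840, 1319 and 914 in Aged Bleo and 208, 435 and 64.9 in Aged Sham (log2 fold change 4.08 ± 0.78, adjusted p = 6.67e-05, edgeR adjusted p = 0.0444). Both had their lowest Aged Bleo value in Aged Bleo 5. Cathepsin S (Ctss), the protease that trims the MHC class II chaperone, held 22427, 19281, 3370 and 3972 in Aged Bleo and 701, 1019 and 424 in Aged Sham (log2 fold change 4.10 ± 0.71, adjusted p = 8.82e-06, edgeR adjusted p = 0.0442). Tyrobp, the signalling adaptor of myeloid receptors, held 4060, 3766, 814 and 609.9 in Aged Bleo and 219.8, 271 and 109.7 in Aged Sham (log2 fold change 3.53 ± 0.65, adjusted p = 3.03e-05, edgeR adjusted p = 0.0445). In each of these genes the lower of Aged Bleo 1 and 2 was 2.89 to 4.85 times the higher of Aged Bleo 3 and 5. Ctss overlaps Hmgb1-ps5, so its reads may be shared. Wfdc17 (log2 fold change 6.89, adjusted p = 0.00285), Adam23 (log2 fold change 3.67, adjusted p = 3.03e-05) and Rassf2 (log2 fold change 4.62, adjusted p = 3.03e-05) were also among these 12. The other member of the 12 was Clec7a, the beta-glucan receptor dectin-1, which is counted under 2 overlapping identifiers and is therefore uncertain. Rassf2, a Ras-association protein, departed from that order with 256, 186, 91.8 and 225 in Aged Bleo and 5.99, 11.5 and 5.48 in Aged Sham, where Aged Bleo 5 lay between Aged Bleo 1 and 2.

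Of 22 macrophage markers, 15 rose and 0 fell, beside 3.4% and 2.45% of all genes, 5 of them also by edgeR (0.448% of all genes), with a median log2 fold change of 3.78. Their summed normalized count was 306000, 195100, 62720 and 41290 in Aged Bleo and 14570, 35220 and 14890 in Aged Sham. On the length-scaled FPKM measure their sum was 2116, 1263, 439.8 and 271 in Aged Bleo and 74.3, 210.4 and 79.2 in Aged Sham. In Aged Bleo 1 and 2 this came to the same order of size as the pan-endothelial sum. Lyz2, lysozyme, made up the largest part with 161720, 98770, 40786 and 22333 in Aged Bleo and 7022, 22089 and 6983 in Aged Sham (log2 fold change 2.75 ± 0.54, adjusted p = 9.57e-05, edgeR adjusted p = 0.0491). Defining surface markers of the list were less even. Adgre1 (F4/80) held 704, 206, 5.40 and 4.06 in Aged Bleo and 7.99, 62.3 and 0.914 in Aged Sham and did not pass the test. Mertk, a receptor for dying cells that ECs carry too, held 2386, 2288, 4643 and 4648 in Aged Bleo and 3409, 5134 and 5011 in Aged Sham with a log2 fold change of -0.37. The count of 15 became 8 without Aged Bleo 1 and 8 without Aged Sham 15. In bulk RNA, fewer cells of a type and less RNA per cell cannot be told apart, and this holds for every marker list below. The sort took cells negative for CD45, which macrophages carry. How much of any other rise came with these macrophage transcripts was not tested. Their summed range is repeated below beside gene groups that were highest in Aged Bleo 1 and 2.

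**Figure D2:**
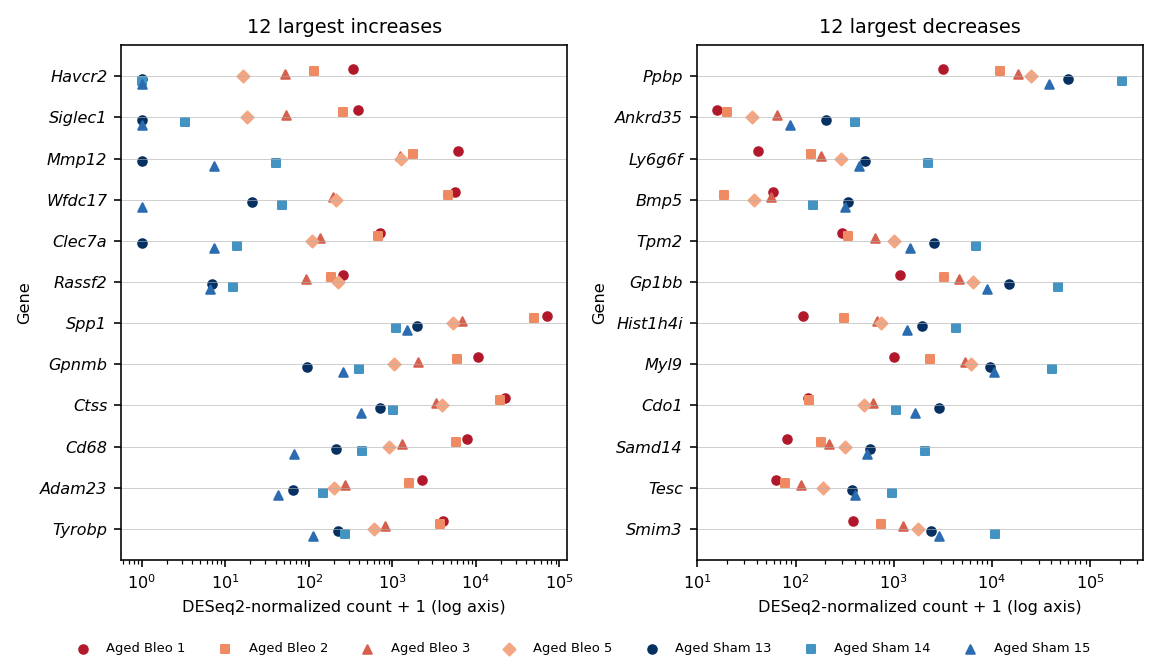
Normalized counts plus 1 on a log axis (x) in each of the 7 aged libraries for the genes with the largest rise and the largest fall by the naming rule (y axis, gene names). Red symbols are Aged Bleo and blue symbols are Aged Sham. By the rule, the Aged Bleo symbols lie to the right of all Aged Sham symbols for the genes that rose and to their left for the genes that fell. Aged Bleo 1 and Aged Sham 14 mark the outer edge of many genes.

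Other leukocyte lists moved less. Of 12 general leukocyte genes 2 rose (Tyrobp and Lcp1) and 1 fell, with 5 calls without Aged Bleo 3. Of 12 T cell and NK cell genes 3 rose. Over all genes 3.4% rose and 2.45% fell. Lck, the T cell kinase, held 542, 434, 233 and 724 in Aged Bleo and 129.9, 77.3 and 151 in Aged Sham (log2 fold change 2.02 ± 0.44, adjusted p = 0.000612, edgeR adjusted p = 0.0494). Cd3e, a chain of the T cell receptor complex, held 8.62, 7.37, 30 and 624 in Aged Bleo and 182, 36.9 and 69.5 in Aged Sham (log2 fold change 0.80, adjusted p = 0.841). Aged Bleo 5 and Aged Sham 13 carried most of the T cell transcripts. The T and NK count was 1 without Aged Bleo 1, without Aged Sham 14 or without Aged Sham 15. Without Aged Bleo 5 it was 1 higher and 1 lower, and the median log2 fold change of the list turned from 0.97 to -1.31. None of the 6 tested neutrophil genes was called by DESeq2 or edgeR (1 with DESeq2 and 0 with edgeR at an unadjusted p under 0.05), and of 10 monocyte genes 1 was. The monocyte count was 0 without Aged Bleo 1 or Aged Bleo 2 and 3 without Aged Bleo 3.

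Platelet transcripts were among the largest falls under the same ranking rule. Ppbp, the most abundant chemokine of platelet granules (ENSMUSG00000029372, chromosome 5, 90768518 to 90770060), held 3203, 12146, 18641 and 24834 in Aged Bleo and 59078, 213600 and 38048 in Aged Sham (log2 fold change -2.82 ± 0.55, adjusted p = 9.61e-05, edgeR adjusted p = 0.0445). Gp1bb, a chain of the platelet receptor for von Willebrand factor, held 1154, 3225, 4595 and 6378 in Aged Bleo and 15079, 47158 and 8937 in Aged Sham (log2 fold change -2.63 ± 0.51, adjusted p = 7.30e-05, edgeR adjusted p = 0.0444). The tropomyosin gene Tpm2 held 298, 343, 642 and 1016 in Aged Bleo and 2594, 6872 and 1476 in Aged Sham (log2 fold change -2.67 ± 0.50, adjusted p = 5.10e-05, edgeR adjusted p = 0.0442). In all 3, Aged Sham 14 lay 2.65 to 3.62 times above the next library, and Aged Bleo 1 was lowest. Gp1bb overlaps Sept5, so its reads may be shared. Of 11 platelet and megakaryocyte markers 8 fell and 0 rose, beside 2.45% and 3.4% of all genes, with a median log2 fold change of -2.31. Their summed count was 9810, 26020, 62650 and 75300 in Aged Bleo and 117000, 498300 and 99170 in Aged Sham. Without Aged Sham 14 only 1 of the 11 was called, and edgeR called 1. The count thus rests on that library, while the groups' sums did not overlap with or without it.

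Among the 12 largest falls of that ranking, Ankrd35, Ly6g6f, Hist1h4i, Myl9, Samd14, Tesc and Smim3 had their highest value in Aged Sham 14 as well, with log2 fold changes of -2.80 to -2.37. Without Aged Sham 14, Myl9 (adjusted p = 0.053), Ly6g6f (adjusted p = 0.076) and Smim3 (adjusted p = 0.0633) lost their call. The other 9 of the 12 kept it in every fit that left out an aged library. Bmp5 and Cdo1 stood apart from this pattern. Bmp5, a ligand of the BMP family (ENSMUSG00000032179, chromosome 9, 75775364 to 75900310), held 58.0, 17.7, 55.2 and 36.5 in Aged Bleo and 339.7, 150.0 and 321 in Aged Sham (log2 fold change -2.69 ± 0.56, adjusted p = 0.000297, edgeR adjusted p = 0.0445). Cdo1, the first enzyme of cysteine breakdown, held 133, 135, 616 and 497 in Aged Bleo and 2891, 1051 and 1654 in Aged Sham (log2 fold change -2.43 ± 0.51, adjusted p = 0.000326, edgeR adjusted p = 0.0445). In both genes Aged Sham 13 was the highest library. Bmp5 overlaps Gm26903, so its reads may be shared. Aged Sham 14 held the highest value in 41 of the 62 genes that passed both tools and the level and overlap rules as lower. Over all tested genes it was highest for 12.1%. Without Aged Sham 14, 55 of the 62 were still called.

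Some transcripts of lung mesenchyme fell after bleomycin in these cells. Of 15 fibroblast markers 5 fell and 0 rose, beside 2.45% and 3.4% of all genes, with a median log2 fold change of -1.48. Their sum was 20990, 15920, 40460 and 29900 in Aged Bleo and 96500, 56070 and 91850 in Aged Sham. Mfap4, a microfibril protein (ENSMUSG00000042436, chromosome 11, 61485431 to 61488900), held 601, 706, 2740 and 2431 in Aged Bleo and 11536, 6741 and 6378 in Aged Sham (log2 fold change -2.34 ± 0.45, adjusted p = 6.44e-05, edgeR adjusted p = 0.0442). Decorin (Dcn), the small proteoglycan that binds collagen, held 1090, 1096, 1446 and 762 in Aged Bleo and 3763, 2274 and 3682 in Aged Sham (log2 fold change -1.56 ± 0.33, adjusted p = 0.00034, edgeR adjusted p = 0.0444). Both kept their calls in every fit that left out an aged library. Tcf21, the transcription factor of lipofibroblasts, held 48.6, 93.6, 328 and 414 in Aged Bleo and 2935, 388 and 938 in Aged Sham and overlapped between the groups (log2 fold change -2.68 ± 0.65, adjusted p = 0.00262, edgeR adjusted p = 0.0659). It lost its call without Aged Sham 13 (adjusted p = 0.153). The list's count of 5 was 3 without Aged Bleo 1 or without Aged Sham 15. Without Aged Bleo 3, 7 fell and 1 rose. Of 15 pericyte and smooth muscle markers 3 fell (Acta2, Tagln and Cnn1), beside 2.45% of all genes, and all 15 had a negative log2 fold change, with a summed range of 2983 to 5692 in Aged Bleo and 7738 to 13040 in Aged Sham. That count was 0 without Aged Bleo 1 or without Aged Sham 13, and 8 without Aged Bleo 5. None of the 11 mesothelial (0 with DESeq2 and 0 with edgeR at an unadjusted p under 0.05) and none of the 11 alveolar type 2 markers (0 with DESeq2 and 0 with edgeR at an unadjusted p under 0.05) was called by DESeq2, edgeR or limma.

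**Figure D3:**
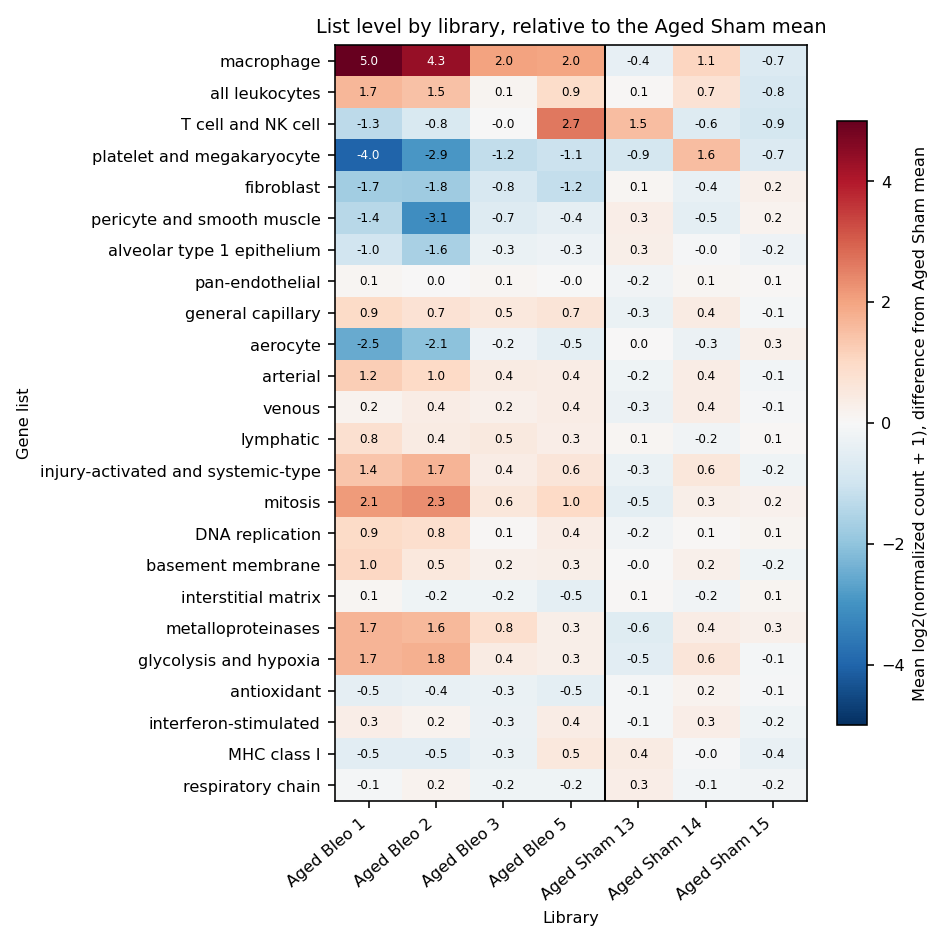
Mean log2 level of each marker or pathway list (rows) in the 7 aged libraries (columns), relative to the mean of the 3 Aged Sham libraries, as a colour scale in log2 units. Red is higher and blue is lower. The macrophage row is reddest in Aged Bleo 1 and 2 and the platelet row is bluest there, while the interferon, MHC class I and respiratory chain rows run between -0.54 and 0.52, with values of both signs among the Aged Bleo libraries.

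The next question was what happened to endothelial identity. Of the 20 pan-endothelial genes 2 rose, 1 fell and 17 were not called (5 calls without Aged Sham 14), beside 3.4% higher and 2.45% lower over all genes, and the median log2 fold change was -0.0088. The genes that rose were Tek, described below, and Sox17. Sox17, a transcription factor of arterial and regenerating endothelium, held 45252, 34806, 13115 and 13834 in Aged Bleo and 6840, 12954 and 5003 in Aged Sham (log2 fold change 1.69 ± 0.41, adjusted p = 0.0025, edgeR adjusted p = 0.0607). Its locus overlaps a non-coding transcript in the table, and reads of the 2 cannot be told apart without strand. Claudin-5 (Cldn5), the main sealing protein of endothelial tight junctions, fell from 241240, 202880 and 206410 in Aged Sham to 87612, 109300, 157530 and 136510 in Aged Bleo, with no overlap (log2 fold change -0.82 ± 0.19, adjusted p = 0.00167, edgeR adjusted p = 0.05002). Kdr, the principal VEGF receptor, held 21679, 23875, 74233 and 56732 in Aged Bleo and 63120, 55442 and 95867 in Aged Sham and was not called (log2 fold change -0.70, adjusted p = 0.433). Aged Bleo 1 and 2 lay far below the other 5 libraries and Aged Bleo 3 and 5 did not.

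Some general capillary genes rose evenly in all 4 Aged Bleo libraries. Of 15 listed, 6 rose and 0 fell (edgeR 2 and 0), with 12 log2 fold changes above 0 and a median of 0.74, beside 3.4% called higher among all genes. Kit, the stem cell factor receptor that marks this state (ENSMUSG00000005672, chromosome 5, 75574916 to 75656722), held 8894, 6494, 5909 and 7244 in Aged Bleo and 2382, 2925 and 2911 in Aged Sham (log2 fold change 1.38 ± 0.25, adjusted p = 3.03e-05, edgeR adjusted p = 0.0442). The lowest Aged Bleo library lay 2.02 times above the highest sham library, the 4 were close to each other, and the call stood without any single library. Tek, the angiopoietin receptor Tie2 (ENSMUSG00000006386, chromosome 4, 94739289 to 94874976), held 21632, 16531, 18636 and 15494 in Aged Bleo and 6458, 10034 and 10496 in Aged Sham (log2 fold change 1.01 ± 0.21, adjusted p = 0.000375, edgeR adjusted p = 0.0445). Its groups did not overlap, and its call too stood without any single library. Ptprb, the phosphatase that restrains Tie2, held 28958, 26066, 20558 and 20865 in Aged Bleo and 14022, 18346 and 12771 in Aged Sham (log2 fold change 0.68 ± 0.17, adjusted p = 0.00309, edgeR adjusted p = 0.0545). The summed macrophage level was 41290 to 306000 in Aged Bleo and 14570 to 35220 in Aged Sham, and its part in these rises was not tested.

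The remaining general capillary calls leaned on Aged Bleo 1 and 2. Cxcl12, the chemokine that retains progenitor cells, held 116970, 82244, 16922 and 14551 in Aged Bleo and 7158, 15784 and 5512 in Aged Sham (log2 fold change 2.60 ± 0.57, adjusted p = 0.000629, edgeR adjusted p = 0.0593). Its Aged Bleo 5 value fell below Aged Sham 14. Lpl, lipoprotein lipase, held 15284, 8718, 2686 and 2724 in Aged Bleo and 685, 3450 and 795 in Aged Sham (log2 fold change 2.16 ± 0.72, adjusted p = 0.0469, edgeR adjusted p = 0.127). Its partner Gpihbp1, which anchors the enzyme to the capillary wall, held 68188, 78056, 31697 and 39676 in Aged Bleo and 33123, 42927 and 21409 in Aged Sham and was not called (log2 fold change 0.74, adjusted p = 0.185). Lpl is expressed by macrophages too, and it was highest in Aged Bleo 1 and 2, as was the macrophage sum. The calls of Lpl without Aged Bleo 1 or 2 or Aged Sham 13 or 15 (adjusted p = 0.131 to 0.318) and Cd93 without Aged Bleo 1 or 2 or Aged Sham 13 or 15 (adjusted p = 0.0799 to 0.169) were lost.

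Few aerocyte genes were called, and the libraries disagreed. All 15 listed genes had a log2 fold change below 0, with a median of -1.04. Of these, 7 had groups that did not overlap, beside 6.14% of all genes. Yet 1 was called, beside 2.45% of all genes called lower, and edgeR called 0 (7 with DESeq2 and 7 with edgeR at an unadjusted p under 0.05). Car4, the carbonic anhydrase on the capillary surface, held 26576, 52283, 177640 and 133390 in Aged Bleo and 273820, 177070 and 271460 in Aged Sham (log2 fold change -1.30 ± 0.51, adjusted p = 0.106, edgeR adjusted p = 0.228). Its sham mean was 9.06 times the Aged Bleo 1 value. Ednrb, the endothelin receptor that marks aerocytes, held 2561, 3533, 27324 and 27177 in Aged Bleo and 28393, 27809 and 49304 in Aged Sham (log2 fold change -1.22 ± 0.79, adjusted p = 0.432, edgeR adjusted p = 0.477). The lowest sham value was 10.9 times Aged Bleo 1 and 7.87 times Aged Bleo 2, while Aged Bleo 3 and 5 lay just under it. Fibin showed the same steps with 246, 645, 4190 and 2721 in Aged Bleo and 5675, 8970 and 6764 in Aged Sham (log2 fold change -1.87 ± 0.88, adjusted p = 0.214, edgeR adjusted p = 0.268). Tspan12, a partner of the Norrin receptor, was the member called (log2 fold change -0.78 ± 0.23, adjusted p = 0.0196, edgeR adjusted p = 0.0916). That call was lost without Aged Bleo 1 or 2 or Aged Sham 15 (adjusted p = 0.0611 to 0.22). There were 0 aerocyte calls without Aged Bleo 1, Aged Bleo 2 or Aged Sham 15, 3 without Aged Bleo 5 or Aged Sham 14 and 5 without Aged Bleo 3.

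Arterial genes rose in part. Of 15 listed, 6 rose and 0 fell, beside 3.4% and 2.45% of all genes (edgeR 1 and 0, beside 0.448% and 0.349%), and the median log2 fold change was 0.69. Sema3g, a semaphorin of arterial endothelium (ENSMUSG00000021904, chromosome 14, 31217860 to 31230350), held 7814, 6576, 3946 and 4638 in Aged Bleo and 1768, 2605 and 1586 in Aged Sham (log2 fold change 1.53 ± 0.25, adjusted p = 2.95e-06, edgeR adjusted p = 0.04). Its lowest Aged Bleo value was 1.51 times the highest Aged Sham value, and it had among the smallest adjusted p-values of the comparison with both tools. The connexin Gja4 held 53715, 48348, 17900 and 23061 in Aged Bleo and 11124, 17119 and 9039 in Aged Sham (log2 fold change 1.52 ± 0.37, adjusted p = 0.00226, edgeR adjusted p = 0.0565). The connexin Gja5 held 9060, 4643, 3207 and 3091 in Aged Bleo and 2018, 2287 and 2547 in Aged Sham (log2 fold change 1.13 ± 0.33, adjusted p = 0.0169, edgeR adjusted p = 0.0865). Bmx, a tyrosine kinase of arterial ECs, held 1795, 1219, 1098 and 1342 in Aged Bleo and 575, 921 and 895 in Aged Sham (log2 fold change 0.77 ± 0.21, adjusted p = 0.00724, edgeR adjusted p = 0.0659). The calls of Gja5 without Aged Bleo 1 or Aged Sham 13 (adjusted p = 0.0785 to 0.14) and Bmx without Aged Bleo 1 or Aged Sham 13 (adjusted p = 0.0593 to 0.0647) were lost. Those of Sema3g and Gja4 were kept in every such fit. Gja4 and Gja5 were highest in Aged Bleo 1 and 2, as was the macrophage sum (41290 to 306000 in Aged Bleo and 14570 to 35220 in Aged Sham), and the part of that sum was not tested.

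**Figure D4:**
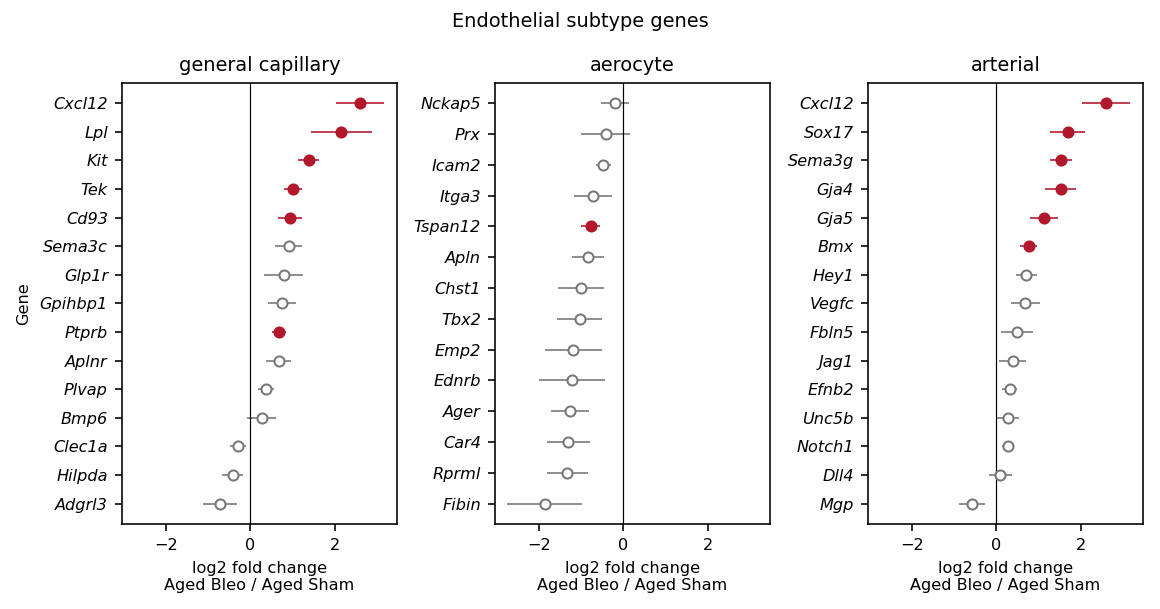
Log2 fold change of Aged Bleo against Aged Sham (x axis), with its SE as error bars, for general capillary, aerocyte and arterial markers. The markers are those with a mean of at least 50 normalized counts (y axis, gene names, 1 panel a list). Red symbols are called genes and grey symbols are genes that were not called. Kit, Tek and Sema3g were called higher, while Car4 and Ednrb had negative log2 fold changes and were not called.

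Venous and lymphatic lists, of 14 and 10 genes, each had 1 call, Ackr1 and Nts, both higher, beside 3.4% of all genes. In both lists edgeR called 0 (2 with DESeq2 and 2 with edgeR at an unadjusted p under 0.05 for the venous list and 3 with DESeq2 and 3 with edgeR at an unadjusted p under 0.05 for the lymphatic list). The venous count was 2 without Aged Sham 14. The lymphatic count was 0 without Aged Bleo 1, Aged Bleo 2 or Aged Sham 14 and 2 without Aged Bleo 5. Ackr1, the atypical chemokine receptor of venules, held 2078, 4247, 581 and 1564 in Aged Bleo and 252, 783 and 302 in Aged Sham (log2 fold change 2.25 ± 0.54, adjusted p = 0.00235, edgeR adjusted p = 0.0666). Of 19 tested genes linked to injured or systemic-type lung endothelium, 7 rose and 1 fell, beside 3.4% and 2.45% of all genes (edgeR 0 and 1, 12 with DESeq2 and 12 with edgeR at an unadjusted p under 0.05). Sparcl1, a matricellular protein of the systemic circulation, held 151330, 99014, 16708 and 19999 in Aged Bleo and 4688, 19065 and 8760 in Aged Sham (log2 fold change 2.73 ± 0.59, adjusted p = 0.000482, edgeR adjusted p = 0.0584). Ntrk2, a neurotrophin receptor that injured capillaries take up, held 37284, 28486, 4877 and 5092 in Aged Bleo and 829, 7688 and 616 in Aged Sham (log2 fold change 2.64 ± 0.83, adjusted p = 0.0306, edgeR adjusted p = 0.135). Lrg1, a secreted leucine-rich glycoprotein, held 92053, 99679, 13489 and 24397 in Aged Bleo and 8261, 28417 and 9192 in Aged Sham (log2 fold change 1.91 ± 0.56, adjusted p = 0.0185, edgeR adjusted p = 0.13). In these 3 genes Aged Bleo 1 and 2 exceeded every other library and Aged Bleo 3 and 5 lay within or close to the sham range. Macrophage markers, with a sum of 41290 to 306000 in Aged Bleo and 14570 to 35220 in Aged Sham, were highest in the same libraries, and their part in these rises was not tested. The call of Ntrk2 without Aged Bleo 1 or 2 or Aged Sham 13 or 15 (adjusted p = 0.109 to 0.255) was lost. The call of Lrg1 without Aged Bleo 1 or 2 or Aged Sham 13 or 15 (adjusted p = 0.11 to 0.246) was lost too. The list held 8 calls, but 5 without Aged Bleo 1 and 5 without Aged Sham 13. The member that fell was Igfbp7, a secreted binding protein and the most abundant of the list (ENSMUSG00000036256, chromosome 5, 77349240 to 77408045). It held 104770, 150380, 199770 and 178850 in Aged Bleo and 429420, 247220 and 306620 in Aged Sham with no overlap (log2 fold change -1.05 ± 0.25, adjusted p = 0.00174, edgeR adjusted p = 0.04996).

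Mitotic genes had higher values after bleomycin. All 25 listed mitosis genes had a log2 fold change above 0, with a median of 1.35, and 9 rose and 0 fell, beside 3.4% and 2.45% of all genes (edgeR 2 and 0). Of the 25, 11 had Aged Bleo values wholly above Aged Sham, beside 5.94% of all genes. Plk1, the kinase that drives entry into mitosis (ENSMUSG00000030867, chromosome 7, 122159437 to 122169875), held 412, 329, 55.8 and 116 in Aged Bleo and 20.0, 26.5 and 14.6 in Aged Sham (log2 fold change 3.49 ± 0.60, adjusted p = 6.97e-06, edgeR adjusted p = 0.0442). Prc1, which bundles the microtubules of the spindle midzone (ENSMUSG00000038943, chromosome 7, 80294450 to 80316259), held 572, 579, 379 and 321 in Aged Bleo and 61.9, 107 and 122 in Aged Sham (log2 fold change 2.24 ± 0.42, adjusted p = 5.51e-05, edgeR adjusted p = 0.0442). Both were called by edgeR as well and in every fit that left out an aged library. The promoters of 5 mitosis genes that rose are shown because they share short sequence elements known from genes that peak in late cell cycle. Each runs from 100 bases before to 30 bases after the RefSeq start on GRCm38.p6. Capitals mark CCAAT, the letters bound by NF-Y, and TTTGAA, the core of the cell-cycle genes homology region. Both were read on either strand, and the capitals of an element on the other strand are its reverse complement.
Prc1 (chr7:80294351-80294480, plus strand): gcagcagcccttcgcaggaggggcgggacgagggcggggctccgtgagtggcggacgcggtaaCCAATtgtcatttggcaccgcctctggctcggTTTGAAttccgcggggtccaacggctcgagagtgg
Cdk1 (chr10:69352883-69353012, minus strand): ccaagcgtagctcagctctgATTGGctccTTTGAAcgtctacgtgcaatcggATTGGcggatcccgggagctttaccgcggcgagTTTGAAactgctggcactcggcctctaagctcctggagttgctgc
Ccnb2 (chr9:70421525-70421654, minus strand): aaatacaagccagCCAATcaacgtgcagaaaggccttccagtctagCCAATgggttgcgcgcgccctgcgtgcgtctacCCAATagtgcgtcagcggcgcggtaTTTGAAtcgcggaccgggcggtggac
Top2a (chr11:99024160-99024289, minus strand): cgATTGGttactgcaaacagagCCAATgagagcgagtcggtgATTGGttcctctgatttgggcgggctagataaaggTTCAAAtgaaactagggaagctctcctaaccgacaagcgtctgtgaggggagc
Cenpf (chr1:189688057-189688186, minus strand): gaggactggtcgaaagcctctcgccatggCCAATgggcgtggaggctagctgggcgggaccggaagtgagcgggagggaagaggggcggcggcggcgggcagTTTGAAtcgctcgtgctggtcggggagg

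In the promoters shown, Cdk1 held 4 of these elements, 2 of each kind, Ccnb2 and Top2a held 3 CCAAT and 1 TTTGAA, and Prc1 and Cenpf held 1 of each. Over the 300-base windows from 250 bases before to 50 after the start, on both strands, TTTGAA was present for 14 of the 19 mitosis genes with a promoter in the set, beside 20.2% of 27025 genes, and CCAAT for 17 of 19, beside 41.1%. TTTGAA was found for 8 of the 9 mitosis genes that rose and for 6 of the 10 with a promoter that were not called. Among 19 DNA replication genes with a promoter it was found for 2. CCAAT was found for 8 of the 9 that rose, for 9 of the 10 not called and for 11 of the 19 DNA replication genes. Its presence did not sort the mitosis genes that rose from those not called. These matches describe the letters in the windows, and binding was not measured here.

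Most of the other mitosis genes were highest in Aged Bleo 1 and 2. Cdk1, the mitotic kinase, held 684, 781, 171 and 328 in Aged Bleo and 44.0, 168 and 108 in Aged Sham (log2 fold change 2.19 ± 0.55, adjusted p = 0.00395, edgeR adjusted p = 0.0732). Top2a, which untangles replicated DNA, held 674, 587, 211 and 149 in Aged Bleo and 124, 79.6 and 106 in Aged Sham (log2 fold change 1.98 ± 0.47, adjusted p = 0.0017, edgeR adjusted p = 0.0554). Both had Aged Bleo values above every sham value. Cenpf, a kinetochore protein, held 256, 339.8, 87.6 and 153 in Aged Bleo and 22.0, 20.8 and 75.9 in Aged Sham (log2 fold change 2.38 ± 0.57, adjusted p = 0.00234, edgeR adjusted p = 0.064). Birc5, survivin, held 580.2, 725, 141 and 213 in Aged Bleo and 97.9, 81.9 and 105 in Aged Sham (log2 fold change 2.13 ± 0.50, adjusted p = 0.00173, edgeR adjusted p = 0.0565). The spindle checkpoint kinase Bub1b held 103, 280.1, 63.0 and 200.3 in Aged Bleo and 0, 27.7 and 5.48 in Aged Sham (log2 fold change 3.82 ± 0.80, adjusted p = 0.000333, edgeR adjusted p = 0.0584). It was highest in Aged Bleo 2 and 5. Mki67, the common marker of cycling cells, held 439, 632, 158 and 200.3 in Aged Bleo and 108, 120.0 and 193 in Aged Sham and was not called (log2 fold change 1.35, adjusted p = 0.113). Its Aged Bleo 3 value lay below Aged Sham 15. The calls of Ccnb2 without Aged Bleo 1 or 2 or Aged Sham 13 or 15 (adjusted p = 0.052 to 0.152) and Ube2c without Aged Bleo 1 or 2 or Aged Sham 13 or 14 or 15 (adjusted p = 0.0523 to 0.237) were lost. The mitosis count ran from 7 to 13 when 1 aged library was left out. Of 25 DNA replication genes 22 had a log2 fold change above 0, with a median of 0.39. Only E2f1 was called (log2 fold change 1.96, adjusted p = 0.0213), beside 3.4% of all genes called higher. There were 2 calls without Aged Bleo 3, and the E2f1 call was lost without Aged Bleo 1 or 2 or Aged Sham 13 or 15 (adjusted p = 0.103 to 0.129). The summed mitosis count was 10610, 12590, 4135 and 5412 in Aged Bleo and 3285, 3610 and 3534 in Aged Sham. The macrophage sum was 41290 to 306000 in Aged Bleo and 14570 to 35220 in Aged Sham, and in which cells of the sort the mitosis transcripts were made was not tested.

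Receptors and ligands of vascular growth moved in both directions. Nos3, the endothelial nitric oxide synthase (ENSMUSG00000028978, chromosome 5, 24364810 to 24384474), held 7904, 6106, 3745 and 4278 in Aged Bleo and 1944, 2740 and 2312 in Aged Sham (log2 fold change 1.24 ± 0.25, adjusted p = 0.000175, edgeR adjusted p = 0.0442). All its Aged Bleo values lay above all sham values. It overlaps Atg9b on the opposite strand, and reads of the 2 cannot be told apart where strand was not used. Nos2, the inducible synthase, held 2464, 1837, 796 and 1123 in Aged Bleo and 172, 646 and 393 in Aged Sham (log2 fold change 1.94 ± 0.40, adjusted p = 0.000258, edgeR adjusted p = 0.0445). Both were called with both tools and without any single aged library. Of 15 tested genes of the endothelin and nitric oxide list 3 rose and 2 fell, beside 3.4% and 2.45% of all genes. These 5 calls became 2 without Aged Bleo 1 or Aged Sham 15 and 3 without Aged Bleo 2 or Aged Sham 13. Edn1, endothelin-1, held 22773, 24550, 8628 and 8065 in Aged Bleo and 4810, 11718 and 3584 in Aged Sham (log2 fold change 1.26 ± 0.42, adjusted p = 0.0465, edgeR adjusted p = 0.147). The groups overlapped, and its call was lost without Aged Bleo 1 or 2 or Aged Sham 13 or 15 (adjusted p = 0.177 to 0.24). Ednra, the endothelin receptor of smooth muscle, held 139, 11.8, 222 and 210.1 in Aged Bleo and 801, 339 and 631 in Aged Sham (log2 fold change -2.02 ± 0.58, adjusted p = 0.0158, edgeR adjusted p = 0.0965). Its call was lost without Aged Bleo 1 or Aged Sham 13 or 15 (adjusted p = 0.0608 to 0.106). The pericyte and smooth muscle sum was 2983 to 5692 in Aged Bleo and 7738 to 13040 in Aged Sham, and its part in this fall was not tested.

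Nrp2, a co-receptor for VEGF-C and semaphorins, held 3774, 2556, 1422 and 1589 in Aged Bleo and 739, 1087 and 969 in Aged Sham (log2 fold change 1.32 ± 0.31, adjusted p = 0.00135, edgeR adjusted p = 0.04996). The lowest Aged Bleo value was 1.31 times the highest sham value. Vegfa held 11030, 7241, 8488 and 9292 in Aged Bleo and 4414, 6921 and 3410 in Aged Sham (log2 fold change 0.87 ± 0.26, adjusted p = 0.0181, edgeR adjusted p = 0.083). Vegfd, listed under its older symbol Figf, held 47.8, 99.5, 154 and 294 in Aged Bleo and 1039, 532 and 493 in Aged Sham (log2 fold change -2.21 ± 0.58, adjusted p = 0.00628, edgeR adjusted p = 0.0714). These 2 ligands thus moved in opposite directions. Angpt1, the Tie2 ligand that mural cells and platelets provide, held 99.6, 82.5, 499.7 and 655 in Aged Bleo and 777, 2502 and 959 in Aged Sham (log2 fold change -2.08 ± 0.62, adjusted p = 0.0208, edgeR adjusted p = 0.114). The calls of Vegfa without Aged Bleo 1 or Aged Sham 13 or 15 (adjusted p = 0.0863 to 0.148), Figf without Aged Sham 13 (adjusted p = 0.088) and Angpt1 without Aged Bleo 1 or 2 or Aged Sham 14 (adjusted p = 0.0584 to 0.225) were lost. The calls of Kit, Tek, Nrp2, Sema3g and Nos3, by contrast, were kept without any single aged library.

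Other regulators rose with them. Prnd, the prion-like protein doppel of growing endothelium (ENSMUSG00000027338, chromosome 2, 131950861 to 131956130), held 1334, 715, 484 and 616 in Aged Bleo and 87.9, 144 and 75.9 in Aged Sham (log2 fold change 2.94 ± 0.45, adjusted p = 9.35e-07, edgeR adjusted p = 0.04). Its lowest Aged Bleo value was 3.35 times the highest sham value. Its reads may be shared with a readthrough transcript of the neighbouring prion gene in the table. Mycn, a growth-promoting transcription factor, held 3890, 2882, 727 and 1174 in Aged Bleo and 354, 649.6 and 250.4 in Aged Sham (log2 fold change 2.38 ± 0.47, adjusted p = 0.000125, edgeR adjusted p = 0.0445). Itga5, the alpha chain of the fibronectin receptor, held 6197, 3676, 3238 and 3874 in Aged Bleo and 1175, 2596 and 1780 in Aged Sham (log2 fold change 1.20 ± 0.26, adjusted p = 0.00063, edgeR adjusted p = 0.0445). In the fit of all libraries it was the 1 called among 13 integrin genes, beside 3.4% of all genes called higher and 2.45% called lower. That count was 2 without Aged Bleo 3, Aged Bleo 5 or Aged Sham 14. Socs3, the feedback inhibitor of cytokine receptors, held 10817, 6981, 5955 and 6299 in Aged Bleo and 1734, 4473 and 3921 in Aged Sham (log2 fold change 1.15 ± 0.31, adjusted p = 0.00795, edgeR adjusted p = 0.0707). Its call was lost without Aged Bleo 1 or Aged Sham 13 (adjusted p = 0.0548 to 0.0773).

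Basement membrane and interstitial matrix genes were listed separately, and the difference between the lists was not tested. Of 18 basement membrane genes 6 rose and 0 fell, beside 3.4% and 2.45% of all genes (edgeR 0 and 0, 7 with DESeq2 and 7 with edgeR at an unadjusted p under 0.05), with a median log2 fold change of 0.63. Col4a1, the main collagen of the vascular basement membrane, held 77434, 80239, 32469 and 33687 in Aged Bleo and 19427, 29474 and 21599 in Aged Sham (log2 fold change 1.25 ± 0.31, adjusted p = 0.00284, edgeR adjusted p = 0.0554). Its lower value in Aged Bleo 1 and 2 was 2.30 times the higher of Aged Bleo 3 and 5. The macrophage sum, 41290 to 306000 in Aged Bleo and 14570 to 35220 in Aged Sham, was highest in the same libraries, and its part was not tested. Nid2, which links laminin to collagen IV, held 1078, 475, 241 and 635 in Aged Bleo and 63.9, 125 and 219 in Aged Sham (log2 fold change 2.15 ± 0.55, adjusted p = 0.0042, edgeR adjusted p = 0.0777). Lama5, a laminin chain, held 8495, 8062, 4064 and 4420 in Aged Bleo and 2997, 3366 and 1713 in Aged Sham (log2 fold change 1.22 ± 0.31, adjusted p = 0.00503, edgeR adjusted p = 0.0607). The calls of Nid2 without Aged Bleo 1 (adjusted p = 0.0618) and Lama5 without Aged Bleo 1 or Aged Sham 15 (adjusted p = 0.0522 to 0.0676) were lost. The list's count was 1 without Aged Bleo 1, 3 without Aged Bleo 2, 3 without Aged Sham 13 and 2 without Aged Sham 15.

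Of 23 interstitial matrix genes 1 rose and 4 fell, beside 3.4% and 2.45% of all genes (edgeR 1 and 2, beside 0.448% and 0.349%), with a median log2 fold change of -0.087 and 10 values above 0. Mfap4 and Dcn fell, as given above, beside Fbln1 (log2 fold change -1.64 ± 0.42, adjusted p = 0.00425, edgeR adjusted p = 0.0593) and Loxl1 (log2 fold change -1.19 ± 0.34, adjusted p = 0.0126, edgeR adjusted p = 0.0822), an enzyme that crosslinks elastin. Fbln1, fibulin-1, held 111, 92.1, 278 and 99.8 in Aged Bleo and 376, 283 and 701 in Aged Sham, where Aged Bleo 3 stood just under Aged Sham 14. The calls of Fbln1 without Aged Sham 15 (adjusted p = 0.114) and Loxl1 without Aged Sham 13 or 15 (adjusted p = 0.0794 to 0.0911) were lost. The list's count was 3 without Aged Sham 15, 8 without Aged Bleo 3 and 10 without Aged Sham 14. Loxl2, which crosslinks collagen IV, was the member that rose, with 356, 489, 126 and 148 in Aged Bleo and 65.9, 48.5 and 77.7 in Aged Sham (log2 fold change 2.13 ± 0.44, adjusted p = 0.00034, edgeR adjusted p = 0.0445). The genes that fell are made mainly by fibroblasts, whose marker sum was 15920 to 40460 in Aged Bleo and 56070 to 96500 in Aged Sham, and their part in this fall was not tested. Col1a1, Col1a2 and Col3a1, the fibrillar collagens, had log2 fold changes of 0.06, -0.70 and -0.0045 and were not called.

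Of 18 tested metalloproteinases and inhibitors 4 rose and 0 fell, beside 3.4% and 2.45% of all genes (edgeR 2 and 0, beside 0.448% and 0.349%). Besides Mmp12, Mmp14, the membrane-bound collagenase, held 5196, 3033, 1371 and 1302 in Aged Bleo and 879, 790.4 and 795 in Aged Sham (log2 fold change 1.73 ± 0.36, adjusted p = 0.000343, edgeR adjusted p = 0.0445). Adamts4, an aggrecanase, held 865, 924, 147 and 439 in Aged Bleo and 15.99, 35.8 and 38.4 in Aged Sham (log2 fold change 4.29 ± 0.81, adjusted p = 6.38e-05, edgeR adjusted p = 0.05002). Adamts4 did not exceed 38.4 in the sham libraries and was above 100 in every Aged Bleo library. Adamts1 held 32317, 19474, 12563 and 8857 in Aged Bleo and 1812, 12006 and 3964 in Aged Sham (log2 fold change 1.63 ± 0.48, adjusted p = 0.017, edgeR adjusted p = 0.112). Aged Sham 14 lay inside the Aged Bleo range, and its call was lost without Aged Bleo 1 or Aged Sham 13 or 15 (adjusted p = 0.0888 to 0.165). In the cytoskeleton list of 27 genes 2 rose (Evl and Marcksl1) and 4 fell (Myl9, Zyx, Tmsb4x and Rac1), beside 3.4% and 2.45% of all genes. None of these falls was called without Aged Sham 14, the library with the highest platelet sum. The 6 calls became 3 without Aged Bleo 1, 10 without Aged Bleo 2 and 2 without Aged Sham 14.

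Antioxidant enzymes fell or were not called. Of 19 tested, 6 fell and 0 rose (edgeR 0 higher and 1 lower), with a median log2 fold change of -0.36, beside 2.45% of all genes called lower. Sod3, the extracellular superoxide dismutase (ENSMUSG00000072941, chromosome 5, 52363946 to 52371405), held 623, 592, 2637 and 1766 in Aged Bleo and 8337, 3862 and 6351 in Aged Sham (log2 fold change -2.14 ± 0.43, adjusted p = 0.000186, edgeR adjusted p = 0.0444). Gpx3, the secreted glutathione peroxidase, held 9856, 24620, 39726 and 40306 in Aged Bleo and 94678, 60443 and 84659 in Aged Sham (log2 fold change -1.48 ± 0.35, adjusted p = 0.00161, edgeR adjusted p = 0.05002). Gpx4, which reduces lipid peroxides, held 9769, 12949, 11633 and 11076 in Aged Bleo and 21153, 24179 and 14727 in Aged Sham (log2 fold change -0.82 ± 0.21, adjusted p = 0.00497, edgeR adjusted p = 0.0565). In these 3 genes every Aged Bleo value lay below every sham value. Gclm, the modifier of glutathione synthesis, held 2826, 3202, 4539 and 5256 in Aged Bleo and 5749, 13292 and 6670 in Aged Sham (log2 fold change -1.12 ± 0.27, adjusted p = 0.00198, edgeR adjusted p = 0.05002). Nox4, the NADPH oxidase subunit that makes hydrogen peroxide and is no member of the list, held 25.9, 25.8, 111 and 83.5 in Aged Bleo and 299.7, 249 and 278 in Aged Sham (log2 fold change -2.16 ± 0.48, adjusted p = 0.000851, edgeR adjusted p = 0.04996). The lowest sham value was 2.25 times the highest Aged Bleo value. The calls of Gpx4 without Aged Sham 14 (adjusted p = 0.058), Srxn1 without Aged Bleo 1 or 2 or Aged Sham 14 (adjusted p = 0.0522 to 0.217) and Gsr without Aged Bleo 1 or 2 or Aged Sham 14 or 15 (adjusted p = 0.0547 to 0.131) were lost. Those of Sod3, Gpx3, Gclm and Nox4 were not. Without Aged Sham 14 the list held 3 lower calls and 1 higher. Sod3 was highest in Aged Sham 13 and 15, the libraries with the highest fibroblast sums, and the part of fibroblast transcripts in its fall was not tested.

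Few genes of glycolysis and hypoxia were called. Of 24 listed, 23 had a log2 fold change above 0, with a median of 0.67, but 3 were called higher, beside 3.4% of all genes, and edgeR called 0 (11 with DESeq2 and 11 with edgeR at an unadjusted p under 0.05). Slc2a1, the glucose transporter GLUT1, held 4485, 4289, 862 and 794 in Aged Bleo and 426, 1014 and 413 in Aged Sham (log2 fold change 2.08 ± 0.59, adjusted p = 0.0138, edgeR adjusted p = 0.117). Adrenomedullin (Adm), a vasodilator peptide induced by low oxygen, held 5630, 6537, 459 and 218 in Aged Bleo and 278, 449 and 190.1 in Aged Sham (log2 fold change 3.39 ± 0.91, adjusted p = 0.00771, edgeR adjusted p = 0.0865). In both genes Aged Bleo 1 and 2 lay at least 4.23 times above the other 5 libraries, and Aged Bleo 3 and 5 lay within the sham range or near it. Beside them the macrophage sum was 41290 to 306000 in Aged Bleo and 14570 to 35220 in Aged Sham, also highest in Aged Bleo 1 and 2, and its part was not tested. The calls of Slc2a1 without Aged Bleo 1 or 2 or Aged Sham 13 or 15 (adjusted p = 0.0775 to 0.124) and Adm without Aged Bleo 1 or 2 or Aged Sham 15 (adjusted p = 0.06 to 0.0639) were lost. The list's count was 0 without Aged Bleo 1, 0 without Aged Bleo 2, 1 without Aged Sham 13, 0 without Aged Sham 15, 7 without Aged Bleo 5 or Aged Sham 14 and 8 without Aged Bleo 3. The promoter of Slc2a1 is shown because it holds ACGTG, the core letters of the hypoxia response element, in capitals.
Slc2a1 (chr4:119108645-119108774, plus strand): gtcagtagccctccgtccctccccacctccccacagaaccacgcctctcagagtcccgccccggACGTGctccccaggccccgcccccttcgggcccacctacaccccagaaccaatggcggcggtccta

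ACGTG was present in the 300-base windows of 16 of the 23 genes of that list with a promoter, beside 21.8% of all genes with a promoter. It was found for 1 of the 3 genes that rose and for 15 of the 20 with a promoter that were not called. The presence of the letters therefore did not sort the called from the other members of the list.

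Immune mediators were called in part. Of 19 tested chemokines 4 rose (Ccl3, Ccl6, Ccl8 and Ccl9, ligands that macrophages make) and 1 fell, beside 3.4% and 2.45% of all genes. These 5 calls became 2 without Aged Bleo 1, Aged Bleo 2 or Aged Sham 15, 3 without Aged Sham 13 and 8 without Aged Bleo 3 or Aged Bleo 5. Ccl3 held 141, 213, 84.6 and 65.7 in Aged Bleo and 22.0, 17.3 and 2.74 in Aged Sham (log2 fold change 3.22 ± 0.76, adjusted p = 0.00173, edgeR adjusted p = 0.0676). Ccl9 held 1460, 1054, 124 and 165 in Aged Bleo and 0, 41.5 and 0.914 in Aged Sham (log2 fold change 5.62 ± 1.58, adjusted p = 0.0118, edgeR adjusted p = 0.0575). The call of Ccl9 without Aged Bleo 1 or 2 or Aged Sham 15 (adjusted p = 0.0544 to 0.0987) was lost. The chemokine that fell was Cxcl16, a membrane-bound ligand of T cells, with 2150, 2553, 3610 and 3199 in Aged Bleo and 5499, 5290 and 6217 in Aged Sham (log2 fold change -0.98 ± 0.21, adjusted p = 0.000403, edgeR adjusted p = 0.0444), and it overlaps Zmynd15. Of 20 complement genes 4 rose and 2 fell, beside the same shares of all genes, and these 6 calls became 2 without Aged Bleo 1 and 3 without Aged Sham 13 or Aged Sham 15. The C1q chain C1qa was highest in Aged Bleo 1 and 2, as was the macrophage sum, with 2060, 1864, 55.2 and 192 in Aged Bleo and 2.00, 53.1 and 14.6 in Aged Sham (log2 fold change 5.48 ± 1.53, adjusted p = 0.0114, edgeR adjusted p = 0.0823). Its call was lost without Aged Bleo 1 or 2 or Aged Sham 13 or 15 (adjusted p = 0.0564 to 0.0867). Properdin (Cfp), the stabiliser of the alternative pathway, held 771, 544, 122 and 168 in Aged Bleo and 32.0, 58.8 and 46.6 in Aged Sham (log2 fold change 3.12 ± 0.62, adjusted p = 0.000119, edgeR adjusted p = 0.0451).

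The complement genes that fell were Serping1 and Cd59a. Serping1, the C1 inhibitor (ENSMUSG00000023224, chromosome 2, 84765387 to 84775444), held 2005, 2115, 5516 and 4306 in Aged Bleo and 9456, 6959 and 10314 in Aged Sham (log2 fold change -1.35 ± 0.30, adjusted p = 0.000897, edgeR adjusted p = 0.0461). Cd59a, which blocks the membrane attack complex, held 408, 531, 368 and 516 in Aged Bleo and 1229, 908 and 573 in Aged Sham (log2 fold change -0.98 ± 0.28, adjusted p = 0.0116, edgeR adjusted p = 0.0714). Both had groups that did not overlap, and the call of Cd59a without Aged Bleo 1 or Aged Sham 13 (adjusted p = 0.0631 to 0.136) was lost. None of the 28 interferon-stimulated genes, the 16 MHC class I genes, the 24 respiratory chain genes, the 22 genes of the unfolded protein response, the 16 clock genes or the 27 tested TGF-beta and BMP genes was called by DESeq2, edgeR or limma on all 16 libraries. On the 7 aged libraries alone DESeq2 called 1 TGF-beta and BMP gene as lower. At an unadjusted p under 0.05 with DESeq2 and edgeR stood 2 and 2 interferon-stimulated genes, 1 and 1 MHC class I genes, 1 and 0 respiratory chain genes, 6 and 6 unfolded protein response genes, 1 and 0 clock genes and 9 and 9 TGF-beta and BMP genes. Over all genes these numbers were 3552 with DESeq2 (18515 had an adjusted p) and 2988 of 18324 with edgeR. Leaving out 1 aged library gave at most 3 calls in any of these 6 lists. Their median log2 fold changes lay between -0.22 and 0.039 except for the clock genes (0.21), beside 0.00614 over all genes. Of 11 MHC class II genes 1 rose, cathepsin S, beside 3.4% of all genes, and 3 did without Aged Bleo 3. Of the 11, 10 had a log2 fold change above 0, with a median of 0.67.

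The last question was which of these changes differed from the bleomycin response of 2-month-old mice, a comparison that shares no library with the aged one. In young ECs 7.57% of genes rose and 6.35% fell by the same test. Of the aged calls 381 rose and 164 fell at both ages, and 6 moved in opposite directions. The difference of the responses itself was called for 77 of 20380 genes (0.378%), with the aged log2 fold change above the young one for 28 and below it for 49. Of these, 1 was called by edgeR, so most rest on DESeq2 alone. Of the 49, 17 fell in aged ECs and 33 rose in young ECs, and of the 28, 11 rose in aged ECs and 18 fell in young ECs.

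Kit was among the genes whose difference was called. Its log2 fold change was 1.38 in aged and -0.09 in young ECs (difference 1.47 ± 0.34 SE, adjusted p = 0.012, edgeR adjusted p = 0.336). Its Aged Sham mean was 2739 ± 309 (SD, n = 3) beside 6694 ± 1674 in Young Sham (SD, n = 5). Aged Bleo stood at 7135 ± 1294 (SD, n = 4) and Young Bleo at 6283 ± 1850 (SD, n = 4). Aged Sham was thus the group that stood apart, below the other 3 groups, which lay within 1 SD of each other. Ctsc, the activator of granule proteases (difference 1.30 ± 0.28 SE, adjusted p = 0.00598), the transcription regulator Zfp608 (difference 0.89 ± 0.23 SE, adjusted p = 0.0423) and the long non-coding RNA Neat1 (difference 0.94 ± 0.23 SE, adjusted p = 0.0241) also had a higher log2 fold change in aged ECs, with young log2 fold changes of -0.30, 0.12 and -0.24. Tek had log2 fold changes of 1.01 in aged and 0.10 in young ECs, but the difference was not called (0.90 ± 0.28 SE, adjusted p = 0.158).

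Genes whose log2 fold change was lower in aged than in young ECs included matrix and complement genes. Mfap4 had log2 fold changes of -2.34 in aged and 0.21 in young ECs (difference -2.55 ± 0.59 SE, adjusted p = 0.0129). Dcn had -1.56 and 0.36 (difference -1.92 ± 0.43 SE, adjusted p = 0.0112). Both fell in aged ECs and were not called in young ECs. Serping1 had -1.35 and 0.37 (difference -1.73 ± 0.40 SE, adjusted p = 0.0132). Cd59a had -0.98 and 0.94 (difference -1.92 ± 0.37 SE, adjusted p = 0.000467). Serpina3n, a protease inhibitor of the acute phase, fell in aged ECs from 23383, 32230 and 37214 in Aged Sham to 13917, 17215, 17593 and 21131 in Aged Bleo (log2 fold change -0.83 ± 0.24, adjusted p = 0.019, edgeR adjusted p = 0.0849). It rose in young ECs by 1.38 (difference -2.21 ± 0.33 SE, adjusted p = 2.35e-07, edgeR adjusted p = 0.0373). It was the gene whose difference edgeR also called, and its aged call was lost without Aged Bleo 1 or Aged Sham 14 or 15 (adjusted p = 0.0648 to 0.157). For Mfap4 the Young Sham mean was 1731 ± 381 (SD, n = 5), close to the 1620 ± 1123 of Aged Bleo (SD, n = 4) and far below the 8218 ± 2879 of Aged Sham (SD, n = 3).

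**Figure D5:**
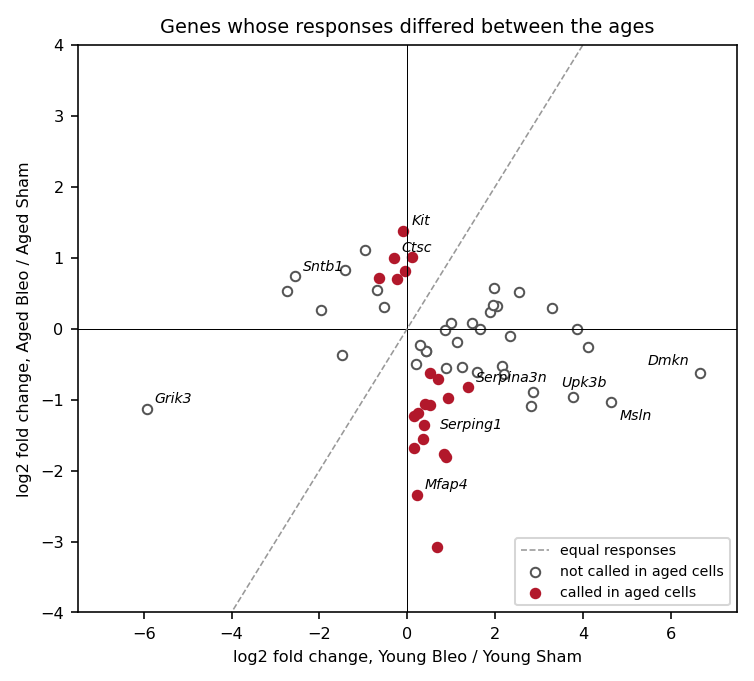
Log2 fold change after bleomycin in young ECs (x axis) and aged ECs (y axis) for the 58 genes whose responses differed by the test and whose mean over the aged libraries was at least 50 normalized counts. Filled points are the 21 called in aged ECs, open points were not, and the dashed line marks equal responses. Kit and Ctsc lie above the line near 0 for young ECs, and Mfap4 lies far below 0 for aged ECs only.

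The largest differences came from genes whose aged change was not called. Grik3, a kainate receptor subunit, held 37.6, 75.2, 184 and 136 in Aged Bleo and 246, 231 and 237 in Aged Sham. Its log2 fold change was -1.13 in aged and -5.94 in young ECs (difference 4.80 ± 0.74 SE, adjusted p = 6.09e-07). The Grik3 mean was 278 in Young Sham and 4.46 in Young Bleo, near the floor of 3 counts. Its fitted young change and difference are therefore not exact sizes. Grik3 also overlaps Ftl2, so its reads may be shared. Sntb1 (aged 0.74, young -2.55, difference 3.29 ± 0.80 SE, adjusted p = 0.0204) and Tram1l1 (aged 0.53, young -2.74, difference 3.27 ± 0.88 SE, adjusted p = 0.0498) followed in that direction. In the other direction stood the mesothelial genes Dmkn (aged -0.62, young 6.66, difference -7.28 ± 1.11 SE, adjusted p = 5.99e-07), Msln (aged -1.03, young 4.65, difference -5.67 ± 1.47 SE, adjusted p = 0.0381) and Upk3b (aged -0.96, young 3.77, difference -4.73 ± 1.08 SE, adjusted p = 0.012). For Dmkn the Young Sham mean was 0.659 normalized counts, under the floor of 3 counts, so that its fitted young change and difference are not exact sizes. The mean was 144 in Aged Sham and 83.8 in Young Bleo. Msln likewise had means of 44.9 in Young Sham, 953 in Aged Sham and 1126 in Young Bleo, so that in both genes the sham groups of the 2 ages started far apart. Of 11 mesothelial markers 9 rose in young ECs, beside 7.57% of all genes, and 0 in aged ECs, and the summed aged level, 2273 to 6033 in Aged Bleo and 4446 to 8851 in Aged Sham, did not rise with bleomycin. Of 15 aerocyte genes 14 fell in young ECs, beside 6.35% of all genes, and 1 in aged ECs, yet the difference of the responses was called for 0 of them. A weaker aged fall is thus not shown by this test.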

How the data were processed

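The study sequenced RNA of sorted lung endothelial cells in 16 libraries, of which the 7 from aged mice are described here. The authors aligned reads to mm10 with STAR 2.5.2b, counted them per gene with featureCounts of the Subread package within a pipeline of their own, and deposited raw counts for 43346 genes. The deposited FPKM values were made by the authors from these counts, the gene length and the library total. The release of the annotation, the use of strand and the handling of reads with several positions are not given in the sources used here, and the library kit is named as SMART-Seq v4 with Nextera in the labels but as TruSeq in the study's methods. Genes that overlap or have near-identical copies are therefore uncertain. The male pattern of all 7 libraries stands beside methods that name both sexes.

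DESeq2 1.42.0 in R 4.3.3, the tool of the study, was fitted to the counts of all 16 libraries with group as the only term, and contrasts gave Aged Bleo against Aged Sham and the difference of the responses at the 2 ages. The p-values are Benjamini-Hochberg adjusted over all genes tested, and genes without an adjusted p in DESeq2 were not counted. The quasi-likelihood test of edgeR 4.0.16 and limma 3.58.1 were run beside it, the latter with voom and on log2(FPKM + 0.1). DESeq2, edgeR and limma voom were tested on simulated data, where DESeq2 made more false calls than its threshold allows and edgeR did not. Total counts of 23.73 to 71.04 mega-counts in the aged libraries set the counting error, which is far smaller than the spread between libraries.

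Genes were named by a rule. It took the 12 highest and 12 lowest fold changes among genes called by both tools with no overlap of the groups and a mean of at least 50 normalized counts, the 3 members of each gene list with the smallest p, the sorting genes and Erg, and the 3 most different genes in each direction between ages. Of 963 listed entries 961 matched the table. Nox4, Mycn, Prnd, Mertk, Cd3e, Fibin, Car4, Kdr, Mki67, Zfp608, Neat1, Ctsc and other genes outside the rule were chosen after their values were seen. The members and lists were chosen with earlier results of these data known. Promoters, credited to RefSeq on GRCm38.p6, were matched by symbol for 27025 genes from 32851 windows of 300 bases, and 3 of 12 motif spellings looked at are reported. Log-scaled counts of 13826 genes gave the principal components. Samples with matching numbers do not occur across groups. Alternatives were other tools, scalings and filters, Xist as a covariate and leaving out each library.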

Additional observations from a re-analysis of the deposited data

Results flagged for a closer look

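In groups of 4 libraries, a value stood far from the others in 3 of the 136 Aged Bleo groups checked, and chance alone marks about 1 group in 20. Mmp12 in Aged Bleo 1 was 6068 normalized counts with the next library at 1775, and this gap was 0.89 of the range. Fbln1 in Aged Bleo 3 was 278 with the next at 111, a gap of 0.897 of the range. Epcam in Aged Bleo 5 was 161 with the next at 36.1, a gap of 0.9 of the range.

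The response to bleomycin differed between the ages, by the DESeq2 test of the difference itself, for 15 of the genes followed by name. The log2 fold change in aged ECs was above that in young ECs by 4.80 for Grik3, 3.29 for Sntb1, 3.27 for Tram1l1, 1.47 for Kit, 1.30 for Ctsc, 0.94 for Neat1 and 0.89 for Zfp608. The difference, aged minus young, was -7.28 for Dmkn, -5.67 for Msln, -4.73 for Upk3b, -2.55 for Mfap4, -2.21 for Serpina3n, -1.92 for Dcn, -1.92 for Cd59a and -1.73 for Serping1. Of these 15, edgeR called the difference for Serpina3n. The sizes for Grik3 and Dmkn are not exact, as given above.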

How the results depend on the processing

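No paired analysis was possible because no replicate number occurs in both groups. For Aged Bleo against Aged Sham, the 1083 DESeq2 calls stood beside 146 with edgeR, 141 with edgeR and no filter on low counts, 53 with limma voom (14 higher, 39 lower), 357 with limma-trend on log2(FPKM + 0.1) (279 higher, 78 lower), 645 with DESeq2 on the 7 aged libraries and 0 with edgeR on them (2039 at an unadjusted p under 0.05). Leaving out 1 library gave 474 (without Aged Bleo 1) to 1492 (without Aged Bleo 3) calls, and leaving out Aged Sham 15, 13 or 14 gave 657, 834 and 1218. Size factors from TMM gave 1074 calls, 670 higher and 404 lower. For the difference of the responses, the 77 calls stood beside 1 with edgeR, 3 with edgeR and no filter, 1 with limma voom, 0 with limma-trend (1382 at an unadjusted p under 0.05) and 158 with Xist as a covariate, and leaving out 1 library gave 37 (without Young Bleo 19) to 226 (without Young Bleo 20). The cause of these shifts was not tested, except that fits with fewer libraries hold fewer samples. Over the 136 genes followed by name, no called fold change reversed its sign in any alternative. Of their values with 1 library left out, 2007 kept their side of the threshold, 148 lost and 11 gained a call, and 65 of the 113 called genes kept their call without each aged library in turn. With edgeR 71 of the 136 kept their side, with limma voom 39, with limma-trend 85, with Xist as a covariate 133 and with TMM size factors 135. Among alternatives chosen after seeing the data, edgeR called 5 macrophage markers instead of 15, 1 platelet marker instead of 8, 2 mitosis genes instead of 9, 2 general capillary genes instead of 6 and 1 injury-linked gene instead of 8, and limma voom called 0, 0, 0, 2 and 0 in these lists. The number of libraries, 4 and 3, limits the precision of these values.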

Other observations

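Some calls fell in gene lists not described above. Meox2, a homeobox factor of the microvasculature that drives fatty acid transport genes, fell with 32.9, 44.2, 24.6 and 17.8 in Aged Bleo and 279.8, 39.2 and 165 in Aged Sham (log2 fold change -2.42 ± 0.51, adjusted p = 0.000343, edgeR adjusted p = 0.0445). Pparg, the nuclear receptor of lipid storage that macrophages and capillaries share, rose with 1912, 1174, 457 and 397 in Aged Bleo and 89.9, 584 and 85.9 in Aged Sham (log2 fold change 1.96 ± 0.58, adjusted p = 0.0193, edgeR adjusted p = 0.122). The fatty acid handling list of 19 genes held 3 higher calls and 1 lower call, beside 3.4% and 2.45% of all genes. Its higher calls were 0 without Aged Bleo 1 or Aged Sham 13 and 1 without Aged Bleo 2 or Aged Sham 15. The Pparg call was thus lost in the fits with 0. F5, coagulation factor V, which platelets carry in their granules, held 162, 268, 1170 and 1218 in Aged Bleo and 1389, 7380 and 1947 in Aged Sham (log2 fold change -2.34 ± 0.79, adjusted p = 0.0478, edgeR adjusted p = 0.118), and the highest value was again in Aged Sham 14. Plat, the tissue plasminogen activator of endothelium, held 16833, 17161, 9337 and 9060 in Aged Bleo and 2720, 8739 and 4641 in Aged Sham (log2 fold change 1.29 ± 0.35, adjusted p = 0.00816, edgeR adjusted p = 0.0733). The coagulation list of 18 tested genes held 2 higher and 2 lower calls, beside 3.4% and 2.45% of all genes. It held 0 without Aged Bleo 1 or without Aged Sham 15, so the calls of F5 and Plat were lost there. It held 0 lower calls without Aged Sham 14 and 0 higher calls without Aged Sham 13. In the Wnt list, Wnt2, a ligand of lung mesenchyme, held 63.5, 45.7, 143 and 151 in Aged Bleo and 436, 217 and 325 in Aged Sham (log2 fold change -1.69 ± 0.44, adjusted p = 0.00576, edgeR adjusted p = 0.0676). Fzd6, a Frizzled receptor, held 4818, 3465, 2069 and 2629 in Aged Bleo and 811, 2583 and 1273 in Aged Sham (log2 fold change 1.06 ± 0.34, adjusted p = 0.0352, edgeR adjusted p = 0.118). The Wnt list of 19 genes held 3 higher and 2 lower calls, beside 3.4% and 2.45% of all genes. It held 1 of each without Aged Bleo 1, Aged Bleo 2, Aged Sham 13 or Aged Sham 15. Among p53 targets 1 of 20 was called, beside 3.4% of all genes called higher and 2.45% called lower. This was Zmat3 with 452, 770.2, 755 and 761 in Aged Bleo and 1557, 769.6 and 1067 in Aged Sham (log2 fold change -0.72 ± 0.24, adjusted p = 0.0484, edgeR adjusted p = 0.133). The p53 count was 0 without Aged Bleo 1, Aged Bleo 2 or Aged Sham 15, 4 without Aged Bleo 3 and 2 without Aged Bleo 5. Cdkn1a, the cell cycle inhibitor p21, had a log2 fold change of -0.92 and was not called (adjusted p = 0.0989).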
